A study of Mus musculus with 4 samples.

Results

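The cells described here were the mature oligodendrocytes of mouse brain that held almost no Ptgds RNA and no Klk6 RNA. A cell qualified with at least 1 unique molecular identifier (UMI, a tag that counts RNA molecules) for at least 5 of the 8 oligodendrocyte genes Mog, Mag, Ermn, Mobp, Cldn11, Ugt8a, Aspa and Mal. It also had to carry no more than 2 of the 7 microglial, astrocytic and endothelial genes P2ry12, Cx3cr1, Csf1r, Aqp4, Gja1, Cldn5 and Flt1, no Klk6 UMI and at most 2 Ptgds UMIs. In all, 71 of 44912 kept cells met the rule, which is 71 of the 13581 cells that met its oligodendrocyte conditions. Of the others, 12566 were Ptgds-high (no Klk6 UMI and more than 2 Ptgds UMIs) and 944 were Klk6-positive. The cells were selected on measured values, their UMIs of these 17 genes, so the counts of members and the levels of those genes are a description and were not tested.

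Oligodendrocytes wrap axons in myelin, a stack of membrane held together by proteins such as myelin basic protein (Mbp). Mature oligodendrocytes are commonly sorted along a range of states: Klk6, a secreted kallikrein protease, marks one end, and Ptgds, the enzyme that makes prostaglandin D2, marks the other. Newly formed oligodendrocytes carry genes such as Enpp6 and Tcf7l2 before the full set of myelin genes.

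Wild-type (WT) mice received DOCA-salt or sham treatment, and single cells of their sensory cortex and hippocampus were profiled. DOCA-salt combines the mineralocorticoid deoxycorticosterone acetate with salt and is a common model of hypertension. The labels give 3 mice per group but do not say whether they were pooled, and there was 1 library for each tissue and treatment, so there are 4 libraries. Groups here follow the library titles, because the treatment field contradicts the title for 2 of them (cortex with DOCA-salt and hippocampus with sham), so every direction between treatments rests on the titles.

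The label does not describe all 71 cells. In 51 of them, the 16 oligodendrocyte markers outside the rule (Mbp, Cnp, Opalin and others) held more UMIs than the marker list of any other cell type. In the remaining 20, another list held at least as many. The astrocyte list led in 8 cells, the endothelial and the microglial lists in 4 each, and the pericyte or smooth muscle list and the blood list in 2 each. This division was made after the values were seen. The cells are therefore called Ptgds-low, Klk6-negative cells, and those in which the oligodendrocyte list led are called oligodendrocyte-led.

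**Figure D1:**
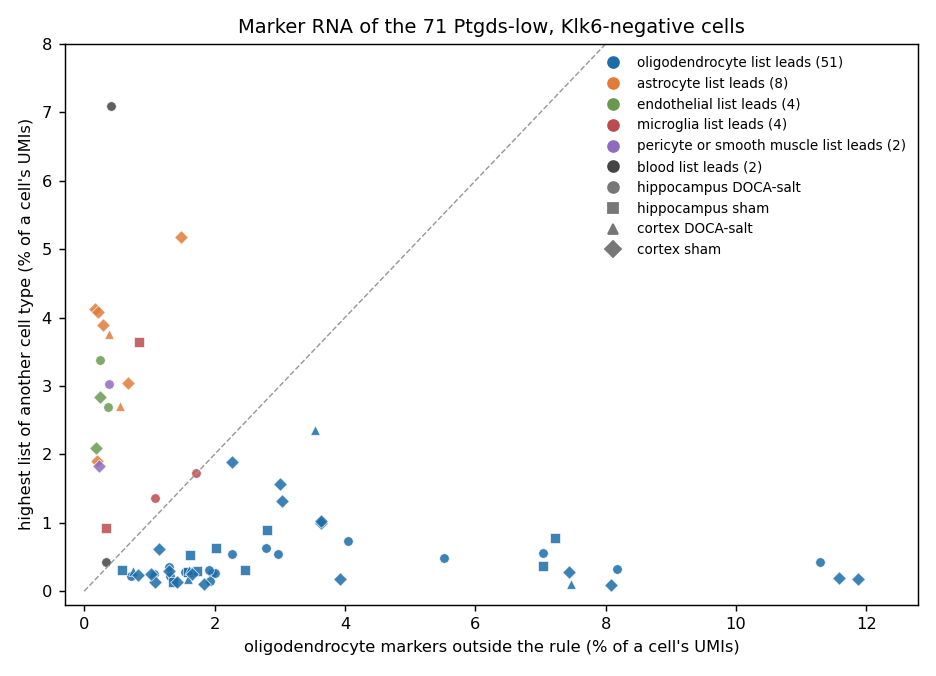
Each point is 1 of the 71 cells. The horizontal axis is the percent of its UMIs in the 16 oligodendrocyte markers outside the rule, the vertical axis the percent in the highest list of another cell type, colours give the leading list and shapes the library. The 51 oligodendrocyte-led cells lie below the dashed line of equal percent, and the 8 astrocyte-led cells, all above it, are all from cortex.

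The 24 cells of hippocampus DOCA-salt made up 0.713% of its mature oligodendrocytes (exact 95% Clopper-Pearson interval 0.457 to 1.06). In hippocampus sham the 12 cells made up 0.244% (0.126 to 0.426), in cortex DOCA-salt the 8 cells 0.314% (0.136 to 0.618), and in cortex sham the 27 cells 0.981% (0.647 to 1.42). Over all depths, the share was thus higher with DOCA-salt in hippocampus and lower with DOCA-salt in cortex. With 1 library per group this was not tested, and the intervals cover counting error only. Counting only oligodendrocyte-led cells, the shares were 0.505%, 0.204%, 0.235% and 0.654% in the same order. Each cell was also thinned at random to 2000 UMIs, shallower cells were left out and the rule was applied again. The order within hippocampus then turned over, to 0.665% with DOCA-salt against 0.708% in sham. This selected 24, 36, 18 and 65 cells in the same order. Most of the 71 cells had fewer than 2000 UMIs, so these were largely other cells, and all values after thinning describe them.

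These cells were shallow. Their median depth was 1156 UMIs in hippocampus DOCA-salt, 1273 in hippocampus sham, 1433 in cortex DOCA-salt and 1626 in cortex sham. The Ptgds-high cells of the same libraries had medians of 6170, 6171, 5304 and 5608 UMIs. Of mature oligodendrocytes with 500 to 1000 UMIs, 8.21% (23 of 280) were Ptgds-low and Klk6-negative. The share was 4.19% (28 of 668) at 1000 to 2000 UMIs and 0.916% (14 of 1529) at 2000 to 4000 UMIs. Among cells with at least 4000 UMIs it was 0.0540% (6 of 11104). Those 6 deep cells were all from cortex sham, and another cell type's list led in each of them. No oligodendrocyte-led cell had more than 2931 UMIs. Ptgds-high cells with 500 to 1000 UMIs held a median of 11, 16, 20 and 14 Ptgds UMIs in the 4 libraries. At 500 to 1000 UMIs, the hippocampus share was 9.73% with DOCA-salt against 5.80% in sham. It was 3.55% against 3.68% at 1000 to 2000 UMIs and 1.91% against 0.179% at 2000 to 4000 UMIs. In cortex the shares at these depths were 5.56% against 11.4%, 2.26% against 7.43% and 0.563% against 1.66%. Hippocampus DOCA-salt had 113 of 3368 mature cells at 500 to 1000 UMIs, and sham 69 of 4912. The part of depth in the shares was not tested.

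**Figure D2:**
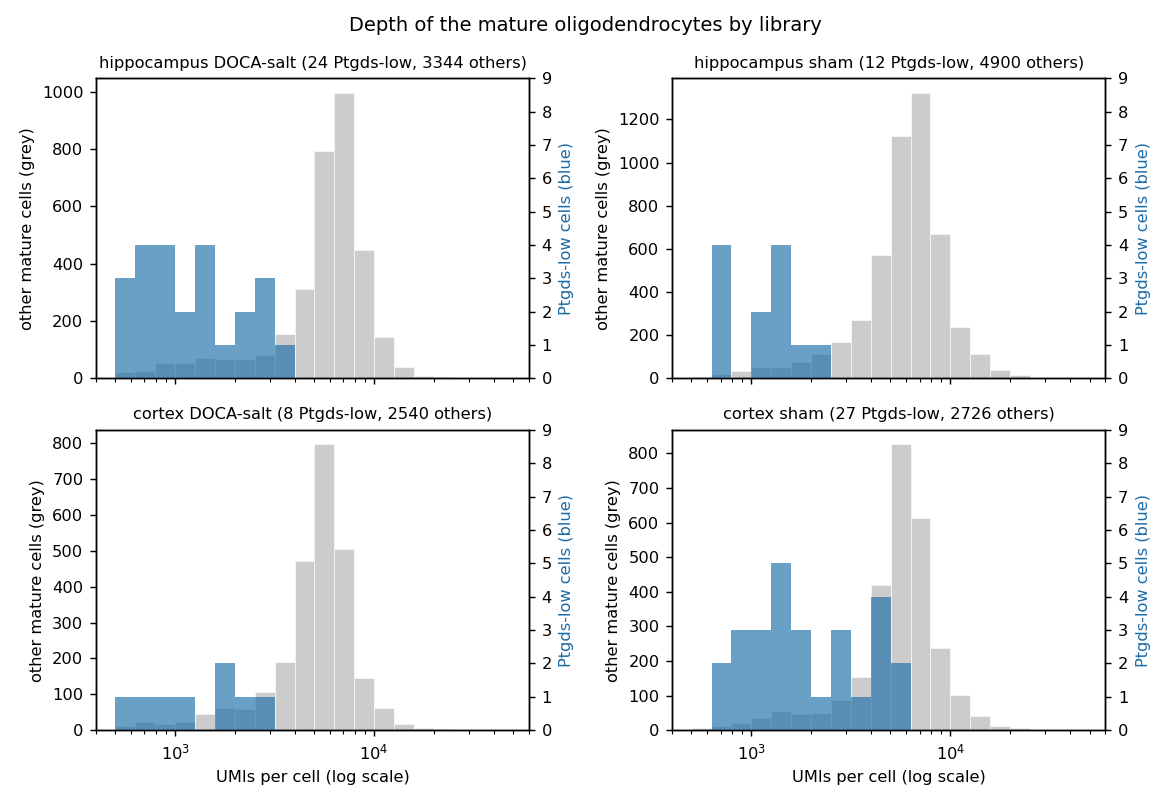
Number of cells (vertical axes, with a separate scale for each kind) by UMIs per cell (log scale) in each library, with Ptgds-low, Klk6-negative cells in blue and all other mature oligodendrocytes in grey. The grey peaks lie above nearly all blue cells, and 51 of the 71 blue cells have fewer than 2000 UMIs.

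Just inside the limits, 13 cells had no Ptgds UMI, 20 had 1 and 38 had 2. Just outside, 52 cells had 3 Ptgds UMIs and 49 had 4. Of the 8 oligodendrocyte genes of the rule, 46 cells had exactly 5, 16 had 6, 8 had 7 and 1 had all 8, while 65 cells met every other condition with 4. Kept cells that failed the oligodendrocyte conditions also carried some oligodendrocyte RNA. With a median depth of 5346 to 5865 UMIs, they held a median of 3 or 4 of the 8 genes. A count of 5 genes therefore lay 1 or 2 genes above the median of those deeper cells. They include any cell with 5 or more of the 8 genes that failed only on the microglial, astrocytic and endothelial genes. No 2 of these cells shared a barcode across libraries, although each pair of libraries shared 94 to 105 barcodes, and 2 of the 71 barcodes also occurred in another library as a cell outside the rule. Scrublet called 4 of the 71 cells doublets, a share near that of all kept cells (2390 of 44912, or 4.27% to 6.65% by library).

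Cells led by another list carried little oligodendrocyte RNA. Their 16 oligodendrocyte markers held a median of 0.352% of UMIs (0.165% to 1.72% over 20 cells), against 2.01% (0.574% to 11.9%) in the 51 oligodendrocyte-led cells. Cells led by another list were also deeper, with a median of 2744 UMIs against 1266.

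Single cells of this kind carried strong programmes of other cell types. A hippocampus DOCA-salt barcode of 3128 UMIs held 147 UMIs of S100a9, 70 of S100a8, 74 of Ifitm1 and 38 of Il1b, genes of neutrophils and other myeloid cells, with 2 of Mbp. Another of that library, of 3367 UMIs, held 57 of Vtn and 27 of Rgs5, which mark pericytes. Its 2 endothelial-led cells held 28 and 40 UMIs of Ly6c1, an endothelial surface protein. The deepest cell of all, a cortex sham barcode of 6189 UMIs, held 176 UMIs of the 8 endothelial markers and 80 of Hspb1, a small heat shock protein. The astrocyte-led cells held 36 to 235 UMIs of the 12 astrocyte markers, among them up to 48 of Slc1a2, the main glutamate transporter of astrocytes. One oligodendrocyte-led cell also went against the label. This hippocampus sham barcode of 2264 UMIs held 36 UMIs of Ccl5 and 7 of Cd3g, both genes of T cells, beside only 13 UMIs of the oligodendrocyte markers outside the rule. These barcodes were named after their values were seen.

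Among the oligodendrocyte-led cells, 2 from cortex sham stood apart with strong myelin expression. The first, of 2600 UMIs, held 54 UMIs of Mbp and 7 of Enpp6, a gene of newly formed oligodendrocytes. The second, of 2756 UMIs, held 127 UMIs of Mbp and 20 of Hmgcs1, an enzyme of cholesterol synthesis, which supplies myelin lipid. Their Fth1 counts, 4 and 2 UMIs, were below the oligodendrocyte-led median of 6. Over the summed UMIs of all 71 cells, the 12 genes of committed or newly formed oligodendrocytes made up 0.113% ± 0.0303 (SD, n = 4 libraries), against 0.0637% ± 0.0116 in Ptgds-high cells matched for depth. The value was higher in 4 of 4 libraries, in hippocampus DOCA-salt only by 0.0680% against 0.0673% (exact sign-flip permutation test, two-sided, p = 0.125, the smallest that 4 libraries allow).

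Many oligodendrocyte-led cells held an unusual share of RNA from long genes. Genes that span at least 100 kb in the GENCODE annotation took a median of 18.3% of UMIs in the hippocampus DOCA-salt cells, 31.4% in hippocampus sham, 28.2% in cortex DOCA-salt and 20.3% in cortex sham. Depth-matched cells, the 5 Ptgds-high cells of the same library nearest in UMIs to each of the 71, had medians of 11.7%, 12.3%, 10.4% and 10.8%. The median was higher in 4 of 4 libraries, by 13.2 ± 6.16 percentage points (SD of the difference, n = 4; exact sign-flip permutation test, two-sided, p = 0.125, the smallest possible). The cells did not form one group: they ran from 5.21% to 55.0%, and 27 of the 71 exceeded the 95th percentile of the depth-matched cells of their own library. That percentile was 27.7% in hippocampus DOCA-salt, 40.8% in hippocampus sham, 29.1% in cortex DOCA-salt and 18.1% in cortex sham. Of the 27 cells, 22 were oligodendrocyte-led, with 7, 1, 4 and 10 in the same order. At 30% or more there were 26 of the 71 cells (24 of them oligodendrocyte-led), against 16 of 355 depth-matched cells.

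**Figure D3:**
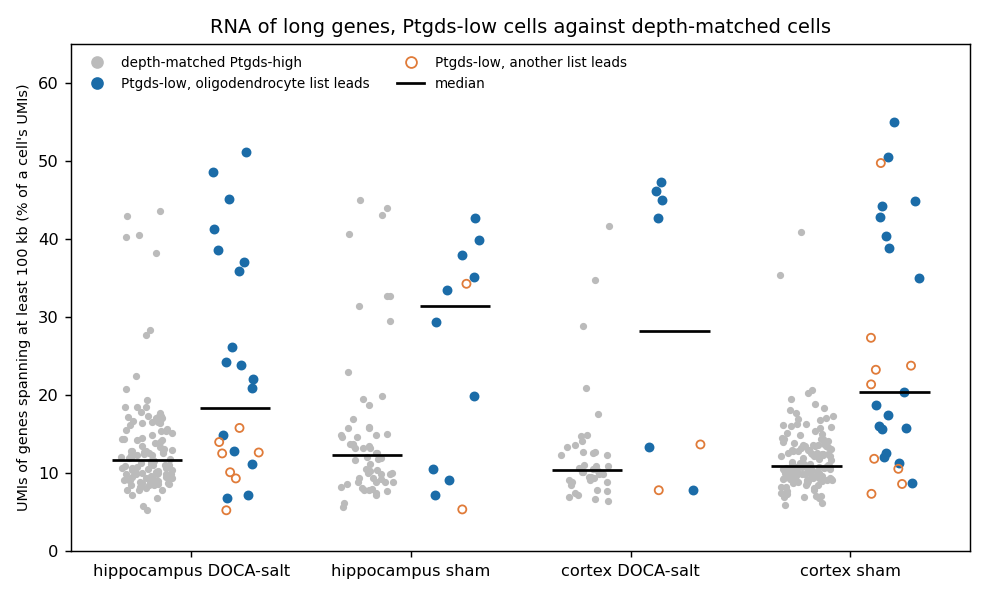
Percent of each cell's UMIs from genes spanning at least 100 kb (vertical axis), by library, for depth-matched Ptgds-high cells (grey) and Ptgds-low, Klk6-negative cells (blue where the oligodendrocyte list led, open orange where another did), with medians as lines. The Ptgds-low medians of 18.3% to 31.4% lie above the matched medians of 10.4% to 12.3% in each library.

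The 22 oligodendrocyte-led cells over the 95th percentile differed from the other 29 in several readouts, given here as a description because the division was made on these values. Summed over cells, Nkain2, which encodes a protein that interacts with the sodium pump, stood at 9766 CPM (a gene's UMIs per 1000000 UMIs summed over the cells) and was seen in all 22 cells, against 1987 CPM and 16 of 29 cells. The 16 oligodendrocyte markers made up 1.66% of UMIs against 5.01%. The median mitochondrial share of UMIs was 7.36% against 2.53%, and the median depth 1572 against 933 UMIs. The limit differed by library, so the 2 sets also differ in their mix of libraries. The part of the library, of the mitochondrial share and of depth in the gene values was not tested.

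The 71 cells were next compared with Ptgds-high cells, gene by gene, on UMIs summed per library, with the library as a block. By edgeR's quasi-likelihood test with Benjamini-Hochberg adjustment, 294 of 12883 genes were higher (2.28%) and 1464 lower (11.4%) at an adjusted p under 0.05. The median log2 fold change of all genes tested was -0.77. The Ptgds-high cells were deeper and far more numerous, so a comparison with the depth-matched cells was added after the data were seen, and the gene values below come from it. It tested 1779 genes, of which 87 were higher (4.89%) and 125 lower (7.03%), around a median of -0.04. All 125 genes that were lower there had also been called lower against all Ptgds-high cells, and 50 of the 87 higher genes had also been called higher. With the 51 oligodendrocyte-led cells alone and their own matched cells, 226 of 789 genes were higher (28.6%) and 170 lower (21.5%), and 183 of the 226 (81.0%) were long genes. The limit on Ptgds acts on the same UMIs, so the levels of other oligodendrocyte genes are not independent of it.

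The genes that were higher than in depth-matched cells were mostly long: 71 of 87 (81.6%) spanned at least 100 kb, against 4 of 125 lower genes (3.20%) and 468 of 1778 genes tested (26.3%). Nkain2 (chromosome 10, 31689310 to 32890462, GRCm38) stood at 3342 CPM in hippocampus DOCA-salt, 4779 in hippocampus sham, 3454 in cortex DOCA-salt and 2875 in cortex sham, against 1052, 1688, 1299 and 901 CPM in depth-matched cells. Every Ptgds-low value exceeded every matched value, with a log2 fold change of 1.38 ± 0.25 (SE; edgeR adjusted p = 0.0043). Slc24a2 (chromosome 4, 86983124 to 87230477), a sodium, potassium and calcium exchanger, stood at 2464, 2881, 2611 and 1197 CPM against 662, 824, 574 and 517 CPM. Its log2 fold change was 1.57 ± 0.27 (edgeR adjusted p = 0.00291), and the groups again did not overlap. Plcl1, a phospholipase C-like protein, was higher by 1.53 ± 0.28 on the log2 scale (edgeR adjusted p = 0.00406), and Pde4b, a cyclic AMP phosphodiesterase, by 1.18 ± 0.26 (edgeR adjusted p = 0.0119).

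The largest increases that held in all 4 libraries, by the fixed rule, included Xpr1, a phosphate exporter (log2 3.37 ± 0.76), Cd52, a lymphocyte and myeloid surface antigen (3.02 ± 0.77), Fam117b (2.69 ± 0.76) and Dgki, a diacylglycerol kinase (2.46 ± 0.41). Crip1, Snx29, Rabgap1l, Ctnna2 (an alpha-catenin of neural cells) and Dock5 followed at 2.06 to 2.40. Several rested on few molecules: Xpr1 had 7, 4, 1 and 10 UMIs and Cd52 had 15, 6, 1 and 2. Dgki was better measured, with 19, 19, 5 and 27 UMIs, and stood at 538, 1244, 421 and 420 CPM against 158, 105, 118 and 43 CPM. Without the 20 cells led by another list, Crip1 turned lower against all Ptgds-high cells (log2 -0.17). In the largely different cells that met the rule after thinning to 2000 UMIs, Fam117b (-0.47), Rabgap1l (-0.16) and Dock5 (-0.0428) were lower in that comparison.

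Oligodendrocyte genes were lower. Of the 16 oligodendrocyte markers outside the rule, 15 were tested against depth-matched cells, 9 fell and none rose, with a median of -1.56 beside -0.04 over all genes tested. The sums include the 20 cells led by another list: in oligodendrocyte-led cells alone, 12 were tested against their matched cells and 7 fell, with a median of -0.94 beside -0.33. The 16 markers made up 1.93% ± 0.278 of UMIs against 4.70% ± 0.933 over all cells (SD, n = 4), and 2.99% ± 0.977 against 4.6% ± 0.753 in oligodendrocyte-led cells. Cryab, a small heat shock chaperone abundant in oligodendrocytes (chromosome 9, 50751325 to 50756636), stood at 651, 1506, 674 and 1150 CPM against 4083, 4698, 4827 and 9031 CPM. It fell by 2.70 ± 0.31 on the log2 scale (edgeR adjusted p = 0.000288), with no overlap. Opalin, a membrane protein of the myelinating oligodendrocyte (chromosome 19, 41061710 to 41077113), stood at 425, 524, 84.2 and 124 CPM against 1436, 1047, 1502 and 1613 CPM and fell by 2.56 ± 0.45 (edgeR adjusted p = 0.00292). Mbp did not pass the test, at 2634, 4256, 2948 and 4585 CPM against 4840, 5156, 4624 and 6254 CPM (log2 -0.75 ± 0.25, edgeR adjusted p = 0.0651). In oligodendrocyte-led cells Mbp stood at 4332, 4789, 4578 and 10421 CPM, with a log2 fold change of 0.13 ± 0.27 from their matched cells (edgeR adjusted p = 0.665).

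**Figure D4:**
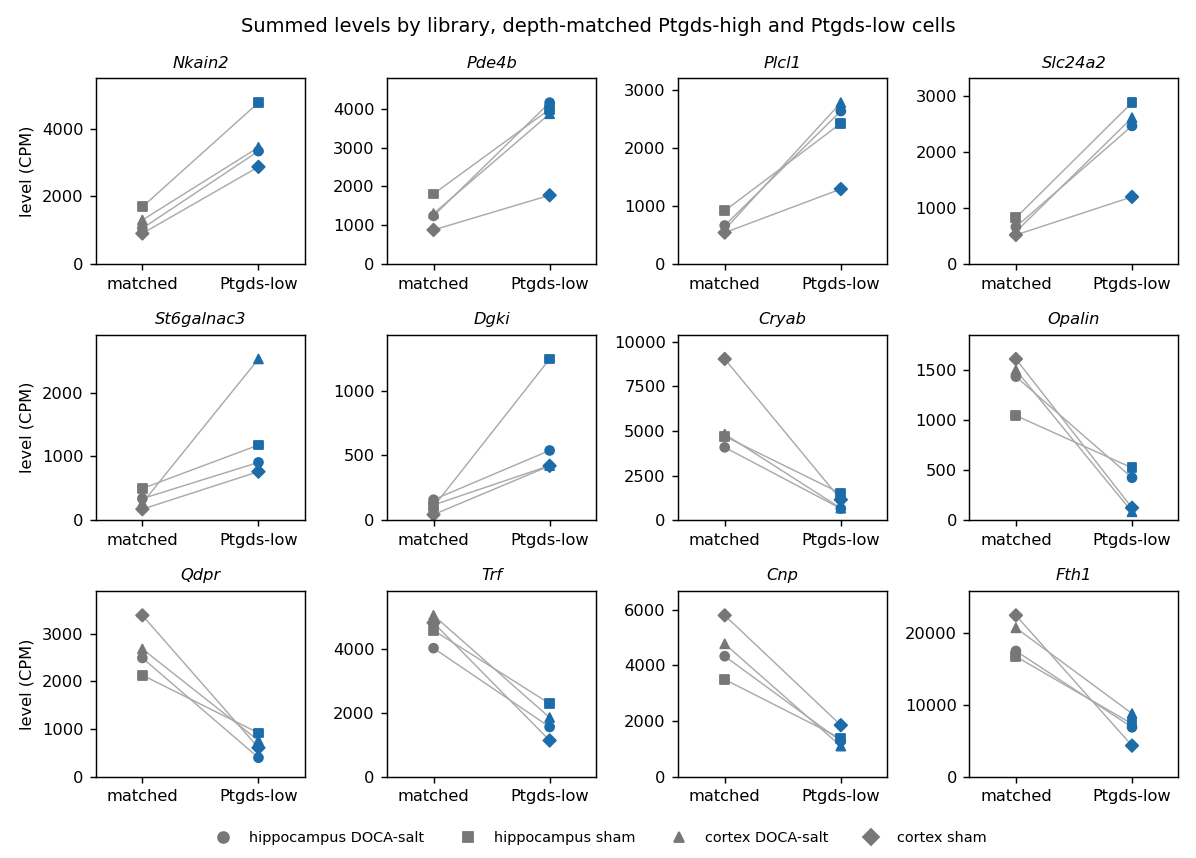
Summed level in CPM (vertical axes, from 0) of 12 genes in depth-matched Ptgds-high cells and in Ptgds-low, Klk6-negative cells, with 1 point and line per library. The first 6 genes are higher and the last 6 lower in the Ptgds-low cells of each library, as for Nkain2 (2875 to 4779 CPM against 901 to 1688 CPM) and Cryab (651 to 1506 CPM against 4083 to 9031 CPM).

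The other lowest genes by the fixed rule were Smim1, Hdac11, Adssl1, Lgi3, Phlda3, Pigyl, Gstp1 and Etv1, at log2 fold changes of -3.44 to -2.52. Lgi3, a secreted protein of the leucine-rich glioma-inactivated family, stood at 56.7, 131, 253 and 46.6 CPM against 475, 497, 557 and 594 CPM. Gstp1, a glutathione transferase, stood at 113, 131, 168 and 109 CPM against 673, 537, 911 and 613 CPM. Neither overlapped its matched values. Smim1 had only 1, 0, 0 and 1 UMIs in the 4 libraries, and Hdac11, a histone deacetylase, 1, 0, 0 and 2.

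In the wider gene groups, counts are read against the 7.03% of all genes tested that were lower. Of 20 myelin sheath proteins, 14 were tested and 7 fell, among them Cd9, Plekhb1, Pllp, Cnp, Opalin and Gjb1, with a median of -1.31. Of 28 myelin lipid genes, 11 were tested and 1 fell, the ceramide synthase Cers2, a share near that of all genes. Of the 12 genes typical of the Ptgds end of the range, 9 were tested and 5 fell: Car2 (carbonic anhydrase), Qdpr, Trf (transferrin), Apod (apolipoprotein D) and Il33 (an alarmin cytokine). Of the 11 genes typical of the Klk6 end, 5 were tested and 2 fell, the transcription factor Nkx6-2 and the signal peptidase subunit Sec11c. The other 4 tested genes of the Ptgds end and the other 3 of the Klk6 end did not pass.

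Some genes of the lineage moved the other way. Counts are read against the 4.89% of all genes tested that were higher and the 7.03% that were lower. Among 13 lineage transcription factors, 9 were tested: St18 (log2 1.34 ± 0.29) and Zfp536 (1.07 ± 0.31) rose, and Nkx6-2 (-1.95 ± 0.39) and Olig1 (-1.98 ± 0.34) fell. St18 spans 373.7 kb. Both iron-handling genes that passed the test fell and are given as examples: Trf, and Fth1, the ferritin heavy chain. Fth1 stood at 6855, 7333, 8761 and 4305 CPM against 17467, 16699, 20673 and 22415 CPM. Of 14 heat shock genes, 11 were tested and Hspa8, Cryab and Hsp90aa1 fell. Of 20 nuclear genes of oxidative phosphorylation, all 20 were tested and none passed, with a median of -0.66. At an unadjusted p under 0.05 the whole comparison held 584 genes. Against all Ptgds-high cells, which were deeper, 17 of the same 20 had been called lower, beside 11.4% of all genes tested. Of 22 corticosteroid targets, 10 were tested: Cdkn1a, a cell cycle inhibitor, was higher by 2.08 ± 0.50 and Sgk1, a kinase induced by corticosteroids, fell by 2.10 ± 0.42. That is a single gene each way, near the shares of all genes.

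Of the astrocyte, microglial, endothelial and pericyte or smooth muscle markers, none passed the edgeR test against depth-matched cells (584 genes in all had an unadjusted p under 0.05), but their summed level was high in single libraries. The 12 astrocyte markers made up 0.238% of UMIs in hippocampus DOCA-salt, 0.0327% in hippocampus sham, 1.28% in cortex DOCA-salt and 1.45% in cortex sham, against 0.362%, 0.174%, 0.388% and 0.244% in matched cells. The 8 endothelial markers made up 0.499%, 0.00655%, 0.00842% and 0.502% in the same order, against 0.234%, 0.160%, 0.0169% and 0.0437%. The part of these cells in the comparison was not tested. Against all Ptgds-high cells, 2.28% of all genes tested were higher. Of the 8 endothelial markers, of which the rule genes Cldn5 and Flt1 were not tested, 4 rose (Slco1a4, Cdh5, Ly6c1 and Itm2a). Of the 7 markers of pericytes or smooth muscle, 5 rose (Rgs5, Myl9, Tagln, Vtn and Acta2). All of these but Vtn and Acta2 were above Ptgds-high cells in only 2 of 4 libraries. In hippocampus DOCA-salt, 1 barcode held 57 of the 59 Vtn UMIs and 1 held 40 of the 74 Ly6c1 UMIs.

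The comparison with all Ptgds-high cells gave its lowest values for genes with no UMI in any of the 71 cells. Rab33a, a small GTPase, had no UMI in the 71 cells and stood at 78.6 to 104 CPM in Ptgds-high cells, which makes it at least 3.76-fold lower if 3 counts are allowed over the 71 cells. Cln8 was at least 3.60-fold and Plekhf1 at least 3.09-fold lower on the same basis. Zfp365, Hras, Sdf2l1, Adgrv1, Ngp and Dohh were at least 1.56-fold to 2.70-fold lower. The highest by the rule were Gab2 (log2 2.48 ± 0.59), Clasp1 (2.28 ± 0.58) and Cd52 (2.25 ± 0.57), with Itgb2, Fyb and Cebpb, all 3 expressed in myeloid cells, among the rest.

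Against Klk6-positive cells, 562 of 9222 genes were higher (6.09%) and 1566 lower (17.0%) by edgeR. These cells had median depths of 6908 to 8019 UMIs, and no depth-matched comparison was made. Of the 11 genes typical of the Klk6 end, 9 were tested and 5 fell: Sec11c (log2 -3.61 ± 0.42), Nkx6-2 (-3.11 ± 0.46), S100b (-2.12 ± 0.42), Mgst3 (-2.01 ± 0.62) and Ifi27 (-1.44 ± 0.50). Of the 12 genes typical of the Ptgds end, 11 were tested and 9 fell. The largest increases were in Ppp2r2b (3.36 ± 0.68), Cd52 (3.29 ± 0.62) and Mertk, a receptor for the uptake of dead cells (3.26 ± 0.54). Of 37 Mertk UMIs, 16 came from 1 microglia-led barcode of hippocampus sham, and Mertk turned lower in oligodendrocyte-led cells alone (-0.42). Without the hippocampus DOCA-salt library, 261 genes were higher and 473 lower, and without cortex sham 168 and 803. In oligodendrocyte-led cells alone, 215 of 8279 genes were higher (2.6%) and 1774 lower (21.4%).

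Leaving out 1 library also moved the comparison with all Ptgds-high cells. Without hippocampus DOCA-salt, 44 genes were higher and 325 lower. Without cortex sham the counts were 105 and 935, and without hippocampus sham 249 and 974. DESeq2 called 110 genes higher and 1624 lower. In oligodendrocyte-led cells alone, edgeR called 162 of 12720 genes higher (1.27%) and 1436 lower (11.3%).

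DOCA-salt and sham were compared within each tissue on the summed UMIs of these cells: 35305 UMIs in hippocampus DOCA-salt, 15274 in hippocampus sham, 11871 in cortex DOCA-salt and 64347 in cortex sham. There is no test with 1 library per group, and a gene is described as higher or lower where its CPM differed at least 1.5-fold. In hippocampus, 95 of 371 genes with at least 20 UMIs were higher with DOCA-salt (25.6%) and 91 lower (24.5%). In cortex, 154 of 674 were higher (22.8%) and 246 lower (36.5%). The split depended on the scaling: with TMM factors, which move the median log2 ratio from 0.04 to 0.63 in hippocampus and from -0.22 to -1.10 in cortex, the counts became 193 higher and 26 lower, and 35 higher and 448 lower. In oligodendrocyte-led cells alone, 62 of 208 genes were higher (29.8%) and 41 lower (19.7%) in hippocampus, and 50 of 223 were higher (22.4%) and 69 lower (30.9%) in cortex. Many of these differences lay within counting error. Over all cells without TMM factors, the exact 95% interval of the ratio lay above 1 for 50 of the 371 hippocampus genes and below 1 for 33. In cortex these were 62 and 76 of the 674 genes.

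In hippocampus, the genes furthest above sham came from single barcodes. S100a9 had 149 UMIs against 0 (at least 21.5-fold higher, with 3 counts set for sham), of which 147 lay in 1 barcode, and S100a8 had 71 UMIs against 0, of which 70 lay in that barcode. Ifitm1 followed with 74 of 76 UMIs in 1 barcode, and Vtn with 57 of 59. Ly6c1 had 74 UMIs in 6 cells, 40 of them in 1. In oligodendrocyte-led cells alone these genes had 0 to 5 UMIs. These values describe a few barcodes of that library and not the 24 cells.

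The genes furthest below sham in hippocampus were spread over more cells. Malat1, a nuclear long noncoding RNA, stood at 18694 CPM with DOCA-salt and 32081 in sham, a ratio of 0.583 (95% interval of counting error 0.518 to 0.656), in 23 of 24 and 12 of 12 cells. Phlpp1, a phosphatase, stood at 1275 against 3012 CPM (0.423, 0.274 to 0.653), Pcdh9, a protocadherin, at 2521 against 4714 CPM (0.535, 0.388 to 0.740), and Elmo1, a regulator of cell migration and engulfment, at 680 against 1702 CPM (0.399, 0.220 to 0.724). Apod stood at 765 against 1768 CPM (0.433, 0.244 to 0.766). In sham, 32 of the 72 Pcdh9 UMIs and 15 of the 46 Phlpp1 UMIs lay in 1 barcode each. With DOCA-salt, 11 of the 27 Apod UMIs lay in 1 barcode. In oligodendrocyte-led cells the ratios were nearer to 1: 0.722 (0.636 to 0.820) for Malat1, 0.595 for Phlpp1, 0.788 for Pcdh9, 0.611 for Elmo1 and 0.612 for Apod. Phlpp1, Pcdh9 and Elmo1 are long genes, of 222.5 to 877.3 kb. The median share of UMIs from long genes in oligodendrocyte-led cells was 24.2% with DOCA-salt and 31.4% in sham. Its part in these ratios was not tested. In the largely different cells that met the rule after thinning to 2000 UMIs, Apod, Elmo1 and Phlpp1 were higher with DOCA-salt.

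In cortex, 4 genes of the oligodendrocyte-led cells stood higher with DOCA-salt. Rnf220, a ubiquitin ligase, stood at 3622 CPM against 653 CPM, a ratio of 5.55 (3.54 to 8.70), and at 3.76 (2.40 to 5.89) in oligodendrocyte-led cells alone. St18, a zinc finger factor of the lineage, stood at 2864 against 715 CPM (4.01, 2.49 to 6.38), Mast4, a kinase, at 2443 against 699 CPM (3.49, 2.11 to 5.69), and St6galnac3, a sialyltransferase, at 2527 against 762 CPM (3.32, 2.03 to 5.33). In oligodendrocyte-led cells these ratios were 2.71, 2.66 and 2.45. They rested on 3 to 5 DOCA-salt cells each, and 1 barcode gave 24 of the 43 Rnf220 UMIs 17 of the 34 St18 UMIs, 15 of the 29 Mast4 UMIs and 18 of the 30 St6galnac3 UMIs. Rnf220 and St6galnac3 were lower with DOCA-salt in the largely different cells that met the rule after thinning to 2000 UMIs. Mast4 was lower (log2 -0.088) in cells with no Ptgds UMI, where DOCA-salt held 1 cell, of 565 UMIs. All 4 are long genes, of 225.6 to 602.0 kb. The median share of UMIs from long genes in oligodendrocyte-led cells was 43.8% in cortex DOCA-salt and 19.5% in cortex sham, and its part in these ratios was not tested. Mt1, a metallothionein, was 3.61-fold higher (2.59 to 5.01) over all cells and at 1.09 (0.427 to 2.46) in oligodendrocyte-led cells.

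The genes furthest below sham in cortex belonged to cells led by another list. Hspb1 had 0 UMIs with DOCA-salt and 141 in sham, of which 80 lay in 1 endothelial-led barcode, and Hspa1a had 2 against 130, of which 74 lay in 1 barcode. Gpc5, a glypican found in astrocytes, had 2 UMIs against 161. Pltp and Ly6c1 had 0 UMIs with DOCA-salt and 79 and 112 in sham. Oligodendrocyte-led cells of cortex sham held 3 of the Hspb1, 5 of the Hspa1a, 11 of the Gpc5, 1 of the Pltp and none of the Ly6c1 UMIs.

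In both tissues, Malat1, Mbp, Hspa8, Tmsb10 and Nlgn1 were the lowest with DOCA-salt by the rule. Mbp stood at 2634 against 4256 CPM in hippocampus (0.619, 0.446 to 0.863) and at 2948 against 4585 CPM in cortex (0.643, 0.439 to 0.915). In oligodendrocyte-led cells the ratios were 0.904 (0.650 to 1.27) in hippocampus and 0.439 (0.298 to 0.628) in cortex. There, the sham barcodes with the most Mbp held 127 and 54 of the 284 Mbp UMIs of oligodendrocyte-led cells (295 over all cells). These are the barcodes with strong myelin expression described above, and their part in the cortex ratios was not tested. Hspa8, a constitutive chaperone, stood at 765 against 1506 CPM (0.508, 0.280 to 0.927) and at 505 against 1958 CPM (0.258, 0.0930 to 0.578). It stayed below 1 in oligodendrocyte-led cells, at 0.413 and 0.282. Malat1 stood at 13984 against 21726 CPM in cortex (0.644, 0.545 to 0.757), but at a ratio of 1.02 (0.845 to 1.23) in oligodendrocyte-led cells. Tmsb10 rested on 1 hippocampus sham barcode with all 17 UMIs of that library. In cortex, Nlgn1 (log2 0.12) and Tmsb10 (0.56) were higher with DOCA-salt in the largely different cells that met the rule after thinning. Mbp (0.27) and Nlgn1 (1.21) were higher in cells with no Ptgds UMI, where DOCA-salt held 1 cell, of 565 UMIs, against 4 in sham. No gene was higher in both tissues by the rule.

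Immediate early genes, the fast transcriptional responders Fos, Jun, Atf3, Ier2 and others, showed the same dependence on the kind of cell. Of 21, 12 were measured in hippocampus, 10 were higher with DOCA-salt and none lower, beside 25.6% higher and 24.5% lower over all genes. Their median log2 ratio was 1.43 beside 0.04 over all genes. In cortex, 12 were measured, none was higher and 9 were lower, beside 22.8% higher and 36.5% lower over all genes. Their median there was -1.04 beside -0.22. Their summed UMIs were 616 in hippocampus DOCA-salt, 94 in hippocampus sham, 59 in cortex DOCA-salt and 684 in cortex sham. Cells led by another list held 550, 34, 12 and 596 of these. In oligodendrocyte-led cells the genes made up 0.314% of UMIs in hippocampus DOCA-salt, 0.449% in hippocampus sham, 0.633% in cortex DOCA-salt and 0.323% in cortex sham, which is the opposite order within each tissue. The directions of the whole list were the same with TMM factors.

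Of 9 heat shock genes measured in cortex, 7 were lower with DOCA-salt (median -1.94) and none was higher, beside 36.5% lower over all genes. Cells led by another list held 515 of the 735 heat shock UMIs of cortex sham. In oligodendrocyte-led cells all 3 measured genes (Hspa8, Cryab and Hsp90ab1) were still lower, with a median of -1.82, beside 30.9% lower over all genes. Of the myelin sheath proteins, 7 were measured in each tissue. In hippocampus Tspan2 and Gjc3 were higher and Nfasc and Mbp lower (median -0.30), near the 25.6% higher and 24.5% lower of all genes. In cortex Pllp, Cnp and Mbp were lower (median -0.57), near the 36.5% of all genes. Of the corticosteroid targets, 4 were measured in hippocampus, where Nfkbia and Cdkn1a were higher (beside 25.6% of all genes), and 7 in cortex. There Glul, Mt1, Mt2 and Mt3 were higher and Nfkbia, Cdkn1a and Klf9 lower, beside 22.8% higher and 36.5% lower over all genes. In oligodendrocyte-led cells 3 were measured in cortex, of which Glul and Mt3 were lower (beside 30.9% of all genes) and none higher. In hippocampus 2 were measured, neither past 1.5-fold. Sgk1, Fkbp5 and Zbtb16, also on that list, had at most 12, 4 and 10 UMIs in any library, too few for a comparison.

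Between tissues, 175 of 681 genes were higher (25.7%) and 277 lower (40.7%) in hippocampus sham than in cortex sham. With DOCA-salt, 110 of 336 were higher (32.7%) and 71 lower (21.1%) in hippocampus. The TMM factors gave 39 higher and 429 lower in sham, and 196 higher and 27 lower with DOCA-salt. In oligodendrocyte-led cells alone, 62 of 277 were higher (22.4%) and 74 lower (26.7%) in sham, and 45 of 163 higher (27.6%) and 36 lower (22.1%) with DOCA-salt. By the rule over both treatments, hippocampus was lowest for Aldoc, Apoe, Clu, Luzp2 and Slc1a2, all expressed by astrocytes. Apoe stood at 1869 and 1244 CPM in the hippocampus libraries and at 9519 and 7522 in those of cortex, and Slc1a2 at 227 and 65.5 against 2106 and 2782. The 8 astrocyte-led cells were all from cortex. In oligodendrocyte-led cells, the hippocampus to cortex ratio of Apoe was 0.720 (0.396 to 1.25) in sham and 0.790 (0.435 to 1.49) with DOCA-salt. The others stayed lower in hippocampus sham: Aldoc had 0 against 38 UMIs, and the ratio was 0.136 (0.00323 to 0.884) for Slc1a2 and for Luzp2 and 0.215 (0.0242 to 0.890) for Clu. Of those 38 Aldoc UMIs, 7, 2, 5, 7 and 11 lay in barcodes with 15, 9, 16, 13 and 26 UMIs of the 12 astrocyte markers. Scrublet called the last of these barcodes a doublet. The part of such barcodes in the ratios was not tested. With DOCA-salt, Aldoc (1.41, 0.140 to 69.6), Clu (1.41, 0.282 to 13.7) and Slc1a2 (1.06, 0.190 to 10.7) had ratios above 1 with wide intervals.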

How the data were processed

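Droplet-based single-cell RNA libraries (SeekOne Digital Droplet 3′ kit, polyA RNA, per the labels' protocols) came from hippocampus and sensory cortex, 1 library per tissue and treatment. The deposited matrices hold counts of UMIs for 32285 genes, and the authors used fastp, STAR, Subread and Seurat with GRCm38, per the submitters' processing notes. The annotation, the strand setting and any removal of doublets or free RNA are not given in the sources used here.

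A barcode was kept where 300 or more genes had a UMI and the mitochondrial share did not exceed 20% (403 of 45315 failed). The cells and gene lists were chosen with earlier results of these data known. Cell types were read from marker lists of 6 to 16 genes, and doublets were called with Scrublet in scanpy 1.11.5 but kept. Gene spans came from GENCODE vM21 (GRCm38) for 32158 genes.

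UMIs were summed per library. Treatments and tissues were compared as ratios of CPM (computed from the deposited counts, per 1000000 UMIs of these cells) with exact 95% intervals, for genes with at least 20 UMIs, and 1.5-fold was the limit for higher or lower. A library with no UMI was set to a floor of 3 counts. Intervals and floors cover counting error only. Classes of cells were compared with edgeR 4.0.16 (quasi-likelihood test, TMM, library as a block) in R 4.3.3, with an adjusted p under 0.05, and DESeq2 1.42.0 as an alternative. Those p-values measure the spread between the 4 libraries. Whether the 3 mice of a group were pooled is not stated.

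Named genes were, for classes, the 10 highest and 10 lowest log2 fold changes with an adjusted p under 0.05, a mean of at least 20 CPM in 1 class and 1 direction in all 4 libraries. For ratios they were the 5 highest and 5 lowest by the interval bound nearest to 1, among genes with at least 50 UMIs and a CPM of at least 0.5 times that of other kept cells. Ribosomal, mitochondrial, haemoglobin and sex-linked genes were left out of the naming. List genes also serve as examples. Some genes that met these rules are not reported here. In simulated data, the depth-matched comparison recovered 89.0% of well-measured genes changed 4-fold and 81.25% of the other changed genes (1661 genes), with 6.06% of its calls false. The comparison with all Ptgds-high cells recovered 51.9% and 6.59% (12716 genes), with 21.5% of its calls false. Sums per library were simulated with the same spread for every gene. The simulation therefore does not cover genes held mostly by 1 barcode, which occur in these data.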

Additional observations from a re-analysis of the deposited data

Results flagged for a closer look

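Between tissues, 4 named genes had DOCA-salt to sham ratios in opposite directions. Each tissue had 1 library per treatment, so the difference was not tested. Where a library held no UMI, the value is the log2 ratio at the floor of 3 counts. Hspb1, a small heat shock protein, had a log2 ratio of 1.79 in hippocampus and -3.12 in cortex. Ly6c1, an endothelial surface protein, had 3.42 and -2.78, and Pltp, a phospholipid transfer protein, 1.29 and -2.28. In oligodendrocyte-led cells, Hspb1 had at most 4 UMIs, Ly6c1 at most 5 and Pltp at most 1 in any library. Phlpp1, a phosphatase, ran the other way, at -1.24 in hippocampus and 1.41 in cortex, with ratios of 0.595 (0.383 to 0.921) and 2.45 (1.46 to 4.04) in oligodendrocyte-led cells. In cortex DOCA-salt, 17 of its 29 UMIs lay in 1 barcode. It spans 222.5 kb. The median long-gene share of oligodendrocyte-led cells was 24.2% with DOCA-salt and 31.4% in sham in hippocampus, and 43.8% and 19.5% in cortex. The part of that share in the Phlpp1 ratios was not tested.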

How the results depend on the processing

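Shares are given for hippocampus (DOCA-salt, then sham) and then cortex (DOCA-salt, then sham). With at most 1 Ptgds UMI they were 0.416%, 0.0814%, 0.0785% and 0.472%, with at most 5 UMIs 1.93%, 1.12%, 1.33% and 2.51%, and with at least 6 of 8 markers 0.222%, 0.109%, 0.125% and 0.385%. Thinned to 2000 UMIs they were 0.665%, 0.708%, 0.642% and 2.16%. The rule was applied again to the thinned counts, so all thinned values here rest on largely different cells. Counts of genes are given as higher and lower for DOCA-salt against sham in hippocampus, then in cortex, then for hippocampus against cortex in sham and with DOCA-salt. With at least 50 UMIs they were 21 and 13, 39 and 65, 51 and 62, and 25 and 14. With no minimum they were 684 and 781, 2154 and 474, 2030 and 650, and 524 and 855. With TMM factors they were 193 and 26, 35 and 448, 39 and 429, and 196 and 27. In oligodendrocyte-led cells they were 62 and 41, 50 and 69, 62 and 74, and 45 and 36, over fewer genes. Thinned, they were 170 and 186, 248 and 351, 230 and 337, and 146 and 102. In cells with no Ptgds UMI they were 12 and 6, 3 and 6, 4 and 12, and 5 and 4, over 18 to 28 genes. Cortex DOCA-salt held 1 such cell, of 565 UMIs. Against Ptgds-high cells, DESeq2 called 110 genes higher, thinning gave 162 and 220, the depth-matched cells 87 and 125, oligodendrocyte-led cells 162 higher, and these against matched cells 170 lower. Leaving out 1 library gave 44 to 249 higher and 325 to 1092 lower. Against Klk6-positive cells, thinning gave 132 and 32, oligodendrocyte-led cells 215 higher, and leaving out 1 library 168 to 525 higher and 473 to 1102 lower. Some log2 ratios changed sign. After thinning, with DOCA-salt against sham, these were Apod (0.54), Elmo1 (0.40) and Phlpp1 (0.32) in hippocampus, and Gpc5 (0.14), Ly6c1 (0.0159), Nlgn1 (0.12), Rnf220 (-0.62), St6galnac3 (-0.19) and Tmsb10 (0.56) in cortex. In oligodendrocyte-led cells they were Gpc5 (0.001) and Malat1 (0.0286) in cortex, and Clu (0.50) and Tmsb4x (-1.01) between tissues with DOCA-salt. In cells with no Ptgds UMI they were Mast4 (-0.088), Mbp (0.27) and Nlgn1 (1.21) in cortex and Malat1 (-0.47) between tissues with DOCA-salt. All 4 of these rest on the 1 cortex DOCA-salt cell. With TMM factors it was Malat1 (-0.23) between tissues in sham. Against Ptgds-high cells, Fam117b (-0.47), Rabgap1l (-0.16) and Dock5 (-0.0428) changed sign after thinning and Crip1 (-0.17) in oligodendrocyte-led cells. Against Klk6-positive cells, Cln8 (0.18), Zfp365 (0.65) and Rab33a (0.13) did after thinning and Mertk (-0.42) in oligodendrocyte-led cells. The causes were not tested. Of the other values of named genes in the comparisons of classes, 538 kept their direction and side of the threshold and 85 lost the call. Of those in the ratios, 130 moved by less than their interval and 63 by more. The depth-matched and oligodendrocyte-led settings were chosen after seeing the data. The spread of genes among cells was not run, because too few of these cells had enough UMIs. The comparisons of classes were paired by library through the block, and without it 416 genes were higher and 1695 lower than in Ptgds-high cells, and 741 and 1240 than in Klk6-positive cells. For treatments and tissues no paired analysis was possible because each group held 1 library. With 8 to 27 cells per library, depth limits every ratio, and a gene under 20 UMIs gave none.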
